A study of Mus musculus with 10 samples.

Results

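The genes described here are the Myc family with its Max-binding relatives and a set of genes for ribosome biogenesis, 35 in all, in murine leukaemia cells with lowered Meis1. They were listed by name, 9 for the Myc network and 26 for ribosome biogenesis. Each was represented by its brightest probe set over the 10 arrays among those with a single gene symbol. All 35 were measured, out of 18193 genes on the array. No filter on low values was applied, so none of the 35 dropped out.

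The cells were the murine Mll-AF9 leukaemia line numbered 4166, cultured with 2 ng/ml interleukin 3 in IMDM that held 15% FBS. The control group (n = 5) received an empty lentiviral vector and the other group (n = 5) a lentivirus that expresses an shRNA against Meis1. Both groups were under puromycin, which keeps transduced cells, and both were collected at 48 h. Both carry the Mll-AF9 fusion and express endogenous Meis1. Control and shRNA samples with the same number form a pair, per the labels. The control virus carried no hairpin, the labels name a single Meis1 shRNA construct, and they do not say whether the line is a clone or whether the pairs are separate cultures.

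Myc is a basic helix-loop-helix leucine zipper protein that binds DNA as a dimer with Max, at the E-box CACGTG among other sites. The Mxd proteins, Mxi1 and Mnt also pair with Max and repress from the same sites. Among the best known targets of Myc are genes for making ribosomes, from RNA polymerase I in the nucleolus, through the small nucleolar ribonucleoproteins (snoRNPs) that modify and cut ribosomal RNA, to the factors that assemble both subunits. Meis1 is a homeodomain cofactor of Hoxa9 that helps to sustain MLL-rearranged leukaemia, and growth of such leukaemias is known to depend on Myc.

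The targeted gene was lower in each shRNA array than in its paired control. Meis1 (Entrez gene 17268, chromosome 11) had an intensity of 346 ± 56.3 with the vector and 165 ± 40.2 with the shRNA (SD, n = 5), a log2 change of -1.09 (SE 0.08, adjusted p = 0.000636 by limma). P-values here rest on how far these samples differ from each other, and that spread may be technical. Over all genes, 739 of 18193 passed an adjusted p of 0.05, 543 lower and 196 higher, which is 4.06%. Markers of the labelled myeloid cells were well expressed, with a mean log2 level over 10 genes of 7.89 to 8.43 in the control arrays and 7.84 to 8.18 in the shRNA arrays. Of these 10 genes, 3 were lower, Meis1 among them, and none was higher. Lymphoid markers averaged 2.38 to 2.56 in the controls and 2.46 to 2.72 with the shRNA. Erythroid and megakaryocytic markers averaged 2.41 to 2.89 and 2.53 to 2.77, those of mast cells, basophils and eosinophils 2.97 to 3.10 and 2.86 to 3.04, those of dendritic cells 2.04 to 2.22 and 2.10 to 2.19, and those of stroma 2.25 to 2.35 and 2.37 to 2.54. The unspiked bacterial Trpn control probe sets, a guide to background, read 1.71 to 2.30 on this scale. No gene of those 5 lists of other cell types passed the threshold. Among genes of mature myeloid cells, 3 of 11 monocyte and macrophage markers and 2 of 12 neutrophil granule markers were higher, and 1 of the 12 was lower. The neutrophil markers averaged 5.59 to 6.83 in the controls and 5.86 to 6.80 with the shRNA, and the monocyte and macrophage markers 4.71 to 5.92 and 5.09 to 5.86. The log2 ratio of 3 prime to 5 prime signal in the Gapdh and actin controls, a measure of RNA integrity, was 0.28 ± 0.06 over the vector arrays and 0.37 ± 0.02 over the shRNA arrays (SD, n = 5). The part of RNA integrity and of maturation in the values below was not tested, apart from a fit with the ratio as a covariate. In bulk RNA, fewer cells of a type and less RNA per cell cannot be told apart.

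None of the 35 genes passed the threshold when Meis1 was lowered. By limma, 0 of 35 had an adjusted p under 0.05, against the 4.06% of all genes, and the adjusted p ran from 0.126 to 0.983. Of the 30 members with a mean log2 level above 5, none passed with p adjusted over all 18193 genes, where 8.75% of the 6721 genes above that level did. With limma refitted to those 6721 genes alone and p adjusted over them, 2 of the 30 members (6.67%) and 19.4% of the 6721 passed. At an unadjusted p under 0.05 there were 6 members, or 17.1%, against 18% of all genes. These were Mxd4, Polr1b, Nolc1, Tcof1, Rrp12 and Wdr12. For 7 members all 5 pairs differed in 1 direction, or 20%, against 17.8% of all genes. The shares at an unadjusted p and of 1 direction were not taken for genes above a log2 level of 5 alone. The median log2 change was -0.02 over the members and 0.00395 over all genes. Below 0 lay 20 of the 35 members and 8918 of all 18193 genes.

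The differences of single members were small beside that of Meis1. The log2 changes ran from -0.40 for Rrp12 to 0.33 for Mxd4, and 29 of the 35 were smaller than 0.2 in size. The standard errors were 0.08 to 0.15. For 31 members the 95% interval lay within 0.5 log2 units of 0 (1.41-fold), and for all 35 it lay within 1 unit, where the Meis1 interval ran from -1.28 to -0.90. Control arrays differed among themselves by an SD of 0.03 to 0.43 on the log2 scale, with a median over members of 0.13. The change exceeded the control SD for 17 members, or 48.6%, against 33.7% of all genes. That share of all genes includes dim genes, while 30 of the 35 members had a mean log2 level above 5.

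**Figure D1:**
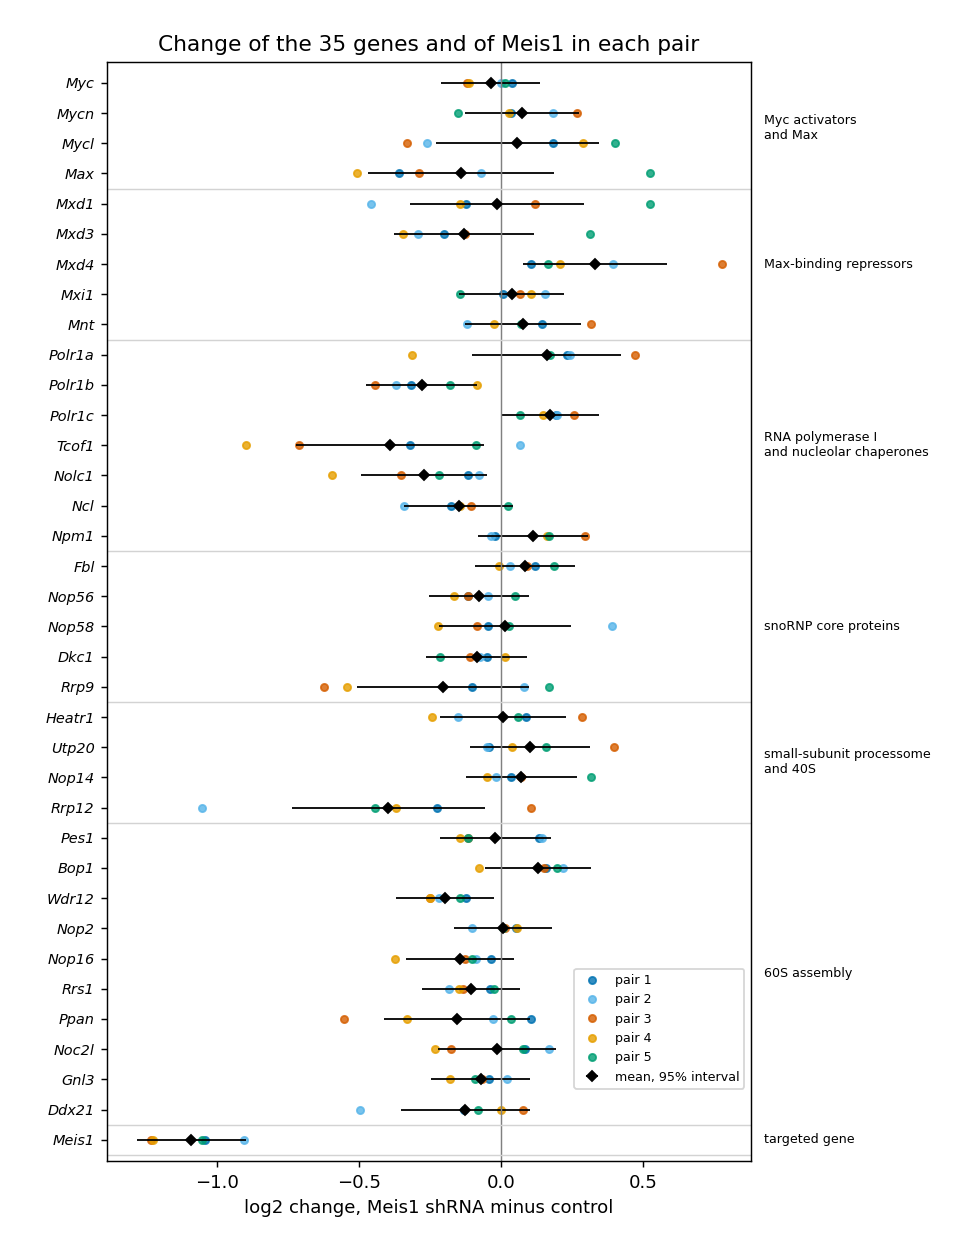
The log2 change (shRNA minus control) of each of the 35 genes, by role, and of Meis1 at the bottom. Coloured points are the 5 pairs, diamonds the mean and bars its 95% interval. All members lie between -0.40 and 0.33, while Meis1 lies at -1.09.

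Myc, the growth-promoting transcription factor that gives the family its name, was measured by 1 probe set (Entrez gene 17869, chromosome 15). Control arrays 1 to 5 read 1718, 1805, 2121, 2373 and 1819, and their shRNA partners read 1765, 1807, 1954, 2194 and 1835. Pairs 3 and 4 were the highest in both groups, and the groups overlapped throughout. Mean intensity was 1967 ± 273 with the vector and 1911 ± 173 with the shRNA (SD, n = 5). In log2 units the change was -0.04 (SE 0.08, adjusted p = 0.870), with a 95% interval of -0.21 to 0.14. That interval corresponds to 0.864 to 1.10 times the control level, so a fall as deep as that of Meis1 lies outside it. Pairs 3 and 4 were lower by 0.12 and 0.11 on the log2 scale, and the other 3 pairs differed by at most 0.04.

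The Myc paralogs Mycn and Mycl, used mainly in neural and some other tissues, were dim. Mycn read 7.218, 7.416, 6.375, 6.853 and 7.522 in controls 1 to 5 and 7.402, 8.427, 7.675, 6.993 and 6.779 in the shRNA arrays. Its control log2 levels were 2.67 to 2.91 and its log2 change was 0.07 (SE 0.09, adjusted p = 0.740). Mycl read 4.768, 6.039, 4.753, 3.903 and 4.759 in the controls and 5.42, 5.047, 3.78, 4.766 and 6.291 with the shRNA. Its control log2 levels, 1.96 to 2.59, overlapped those of the unspiked Trpn probe sets, and its log2 change was 0.06 (SE 0.13, adjusted p = 0.872). At such levels a fall had little room to show. Both groups overlapped for both genes.

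Max, the obligate partner of Myc, was also dim. It read 25.05, 26.66, 25.4, 25.64 and 21.43 in controls 1 to 5 and 19.53, 25.37, 20.82, 18.06 and 30.8 with the shRNA. Pairs 1 to 4 were lower with the shRNA and pair 5 was higher, by 0.52 on the log2 scale. On the log2 scale the difference was -0.14 (SE 0.14, adjusted p = 0.690), with a 95% interval of -0.47 to 0.19. Control 5 was the lowest of the controls and shRNA 5 the highest of its group.

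Mxd4, a Max-binding repressor associated with cells that leave the cycle, had the largest difference upward of the 35. Its brightest probe set of 4 (Entrez gene 17122, chromosome 5) read 207.8, 171.5, 170.1, 255.2 and 186.1 in the controls and 223.7, 225.5, 291.3, 295.1 and 208.5 with the shRNA. All 5 pairs were higher, pair 3 most (0.78 on the log2 scale), and the groups overlapped. The log2 change was 0.33 (SE 0.11, 95% interval 0.08 to 0.58), or 1.26-fold, and it did not pass the threshold (adjusted p = 0.159). Its 3 other probe sets, from the brightest to the dimmest, had changes of 0.09, 0.23 and 0.23.

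Mxd1, which accompanies terminal differentiation of myeloid cells, gave no difference between the groups beyond its spread. It read 25.89, 29.17, 24.36, 29.33 and 23.22 in the controls and 23.8, 21.26, 26.46, 26.56 and 33.44 with the shRNA, a log2 change of -0.02 (SE 0.13, adjusted p = 0.973). Mxd3, the member of this family found in cycling cells, read 37.61, 32.85, 34.82, 36.5 and 28.41 in the controls and 32.72, 26.86, 31.93, 28.75 and 35.28 with the shRNA. In log2 units the change was -0.13 (SE 0.11, adjusted p = 0.612). For Mxd3, as for Max, pairs 1 to 4 were lower and pair 5 was higher (0.31 on the log2 scale for Mxd3). For Mxd1 pair 5 was likewise the highest of the pair differences, at 0.53. Mxd1 and Max had mean log2 levels below 5, and Mxd3 lay just above it.

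Mxi1, a Max-binding repressor, read 781.7, 795.1, 785.7, 833 and 1091 in the controls and 784.9, 885.3, 823.2, 896.5 and 987.2 with the shRNA. Pair 5 was the highest in both groups and the only pair that was lower with the shRNA. On the log2 scale the difference was 0.04 (SE 0.08, adjusted p = 0.869, 95% interval -0.15 to 0.22). The dimmer Mxi1 probe set was at -0.22 (95% interval -0.48 to 0.03). Mnt, the broadly expressed Max-binding repressor that opposes Myc in growing cells, read 134.2, 143.4, 106.1, 145 and 131.9 in the controls and 148.5, 131.9, 132.1, 142.6 and 138.6 with the shRNA. Its log2 change was 0.08 (SE 0.09, adjusted p = 0.725), and its groups overlapped. Over the 9 genes of the Myc network the median log2 change was 0.04, with 4 below 0.

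**Figure D2:**
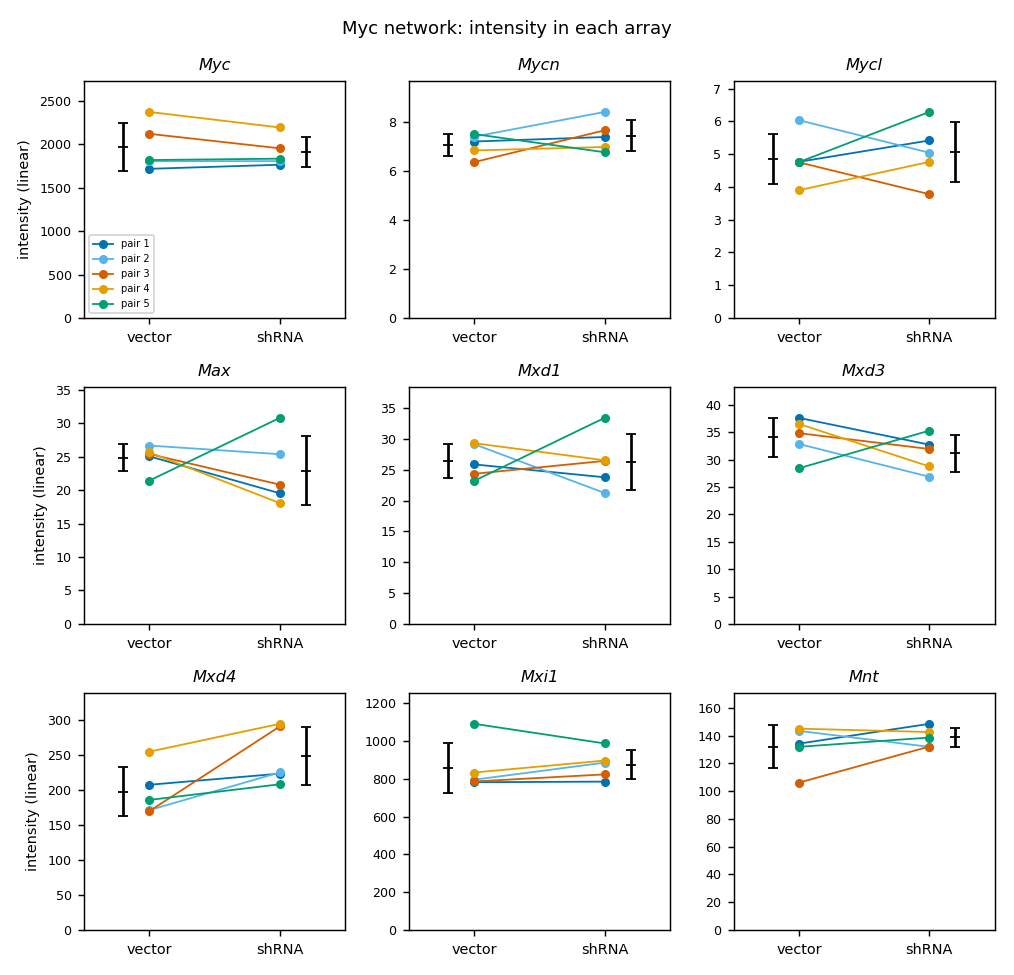
Deposited intensity on a linear axis from 0 for each of the 9 Myc network genes, with the vector at left and the Meis1 shRNA at right. Coloured lines join the arrays of a pair, and black bars give the mean and SD of each group (n = 5). Myc lies between 1718 and 2373 with the vector and between 1765 and 2194 with the shRNA, and Mxd4 alone of the 9 is higher in all 5 pairs.

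The E-box was looked for in RefSeq promoters of GRCm38.p6, each with 250 bases before a gene's start and 50 after it. The motif CACGTG reads the same on both strands. Promoters were listed for 28 of the 35 members, and 6 of those, or 21.4%, held it, against 10.2% of the 14452 measured genes with a promoter and 7.15% of all 32851 listed promoters. The 6 were Max, Mxd4, Mnt, Utp20, Pes1 and Nop2. Myc, Tcof1, Npm1, Fbl, Rrp12, Bop1 and Rrs1 were not listed. The median log2 change was 0.04 for the 6 with the motif and -0.08 for the 22 without it. Over all measured genes it was -0.02 for the 1479 with an E-box, of which 4.33% passed the threshold, and 0.00446 for the 12973 without, of which 4.05% did. A Meis-type motif, TGACAG on either strand, which was added after the changes were seen, was found in 21.4% of the members' promoters and in 20.5% of those of all measured genes.

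The promoters below are shown because they carry the E-box in genes with differences of either sign and near 0. Mxd4 had the largest upward difference of the members, Pes1 and Nop2 were among those closest to 0, and Eif4a1, a Myc target outside the list, fell. They were picked after their values were seen. Capitals mark the E-box, and each sequence runs 5′ to 3′ on the gene's strand. The windows are chr5:34187661-34187960 (minus strand) for Mxd4, chr11:3963725-3964024 (plus strand) for Pes1, chr6:125131633-125131932 (plus strand) for Nop2 and chr11:69672374-69672673 (minus strand) for Eif4a1, all in GRCm38.p6.
Mxd4: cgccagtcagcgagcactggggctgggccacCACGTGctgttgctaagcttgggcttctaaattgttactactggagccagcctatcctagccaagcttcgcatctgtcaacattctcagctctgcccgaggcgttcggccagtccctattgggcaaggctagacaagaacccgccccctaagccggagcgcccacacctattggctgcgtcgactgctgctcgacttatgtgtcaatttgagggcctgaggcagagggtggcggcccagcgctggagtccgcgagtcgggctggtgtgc
Pes1: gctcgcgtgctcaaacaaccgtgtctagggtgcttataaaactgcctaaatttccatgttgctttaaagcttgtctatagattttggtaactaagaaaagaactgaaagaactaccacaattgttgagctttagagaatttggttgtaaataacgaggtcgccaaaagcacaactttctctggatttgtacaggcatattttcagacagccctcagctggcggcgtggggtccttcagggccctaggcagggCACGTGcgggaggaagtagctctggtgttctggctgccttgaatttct
Nop2: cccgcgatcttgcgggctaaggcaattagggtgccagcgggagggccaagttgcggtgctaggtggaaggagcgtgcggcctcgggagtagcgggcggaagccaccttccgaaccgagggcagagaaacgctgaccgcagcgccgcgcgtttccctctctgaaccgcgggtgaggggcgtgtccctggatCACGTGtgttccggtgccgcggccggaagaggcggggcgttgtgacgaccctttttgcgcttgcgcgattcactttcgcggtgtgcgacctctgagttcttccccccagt
Eif4a1: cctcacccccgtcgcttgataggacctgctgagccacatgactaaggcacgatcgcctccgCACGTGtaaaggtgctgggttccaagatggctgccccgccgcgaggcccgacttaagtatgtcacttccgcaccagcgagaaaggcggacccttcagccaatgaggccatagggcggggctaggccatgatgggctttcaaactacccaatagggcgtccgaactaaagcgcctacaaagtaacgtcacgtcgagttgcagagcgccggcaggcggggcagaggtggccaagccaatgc
The first base of the E-box lies 219 bases before the start in Mxd4, 60 before it in Nop2 and 189 before it in Eif4a1, and in Pes1 it lies 2 bases beyond the first transcribed base. A match of letters is a description and does not show that Myc or another factor is bound there.

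Among subunits of RNA polymerase I, the enzyme that transcribes ribosomal RNA, the differences were of both signs. Polr1b, the second largest subunit of the enzyme, read 216.2, 215.4, 212.6, 203.1 and 197.4 in the controls and 173.7, 166.7, 156.5, 191.5 and 174.3 with the shRNA (Entrez gene 20017, chromosome 2). The groups did not overlap, as was so for 2 of the 35 members (5.71%) and for 4.98% of all genes, the other being Nop16. The log2 change of Polr1b was -0.28 (SE 0.09, 95% interval -0.47 to -0.08), lower in all 5 pairs, and its adjusted p of 0.126 was the lowest of the members. It passed when genes with a mean log2 level of 5 or less were left out (adjusted p = 0.0358) and with a pseudocount of 16 (0.0489). Polr1a, the largest subunit, read 102.5, 112.2, 70.47, 128.2 and 72.47 in the controls and 120.4, 132.9, 97.66, 103.3 and 81.71 with the shRNA. It had a log2 change of 0.16 (SE 0.11, adjusted p = 0.535) and was higher in every pair except pair 4. Its other probe sets were dim, at mean log2 levels of 2.38 to 3.22. From the brightest to the dimmest they were at -0.04, -0.26, 0.06 and -0.02. For the mean of its probe sets limma gave -0.02 (adjusted p = 0.964).

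Polr1c, a subunit shared by RNA polymerases I and III, read 675.8, 681.4, 778.1, 788.9 and 645.7 in the controls and 772.8, 781.8, 930.3, 873.5 and 677.2 with the shRNA. All 5 pairs were higher, by 0.07 to 0.26, and the groups overlapped. In log2 units the change was 0.17 (SE 0.08, adjusted p = 0.280), and it passed with a pseudocount of 16 (0.0414). Polr1b and Polr1c were thus each of the same direction in all pairs, but of opposite sign.

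Tcof1 and Nolc1, related nucleolar phosphoproteins that link RNA polymerase I to pre-ribosomal RNA processing, had 2 of the lower values. Tcof1 (treacle) read 306.9, 313.9, 319.3, 383.2 and 249.6 in the controls and 246, 328.8, 195.3, 206 and 234.9 with the shRNA. On the log2 scale the difference was -0.39 (SE 0.14, 95% interval -0.72 to -0.06, adjusted p = 0.199), carried mainly by pairs 3 and 4 at -0.71 and -0.90, while pair 2 was slightly higher. Nolc1 read 1123, 1156, 1073, 1113 and 1008 in the controls and 1037, 1096, 841.2, 736.3 and 867.7 with the shRNA. All 5 pairs were lower, pair 4 most (-0.60), and the groups overlapped. The log2 change was -0.27 (SE 0.10, adjusted p = 0.184), and it passed with trend and robust moderation (0.0262).

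Ncl and Npm1 encode the abundant nucleolar chaperones nucleolin and nucleophosmin. Ncl read 9234, 9607, 8645, 8444 and 8580 in the controls and 8174, 7578, 8031, 7633 and 8731 with the shRNA. It was lower in 4 of 5 pairs, with a log2 change of -0.15 (SE 0.08, adjusted p = 0.410, or 0.0382 with trend and robust moderation). Npm1 read 13200, 12100, 12800, 12700 and 13000 in the controls and 13000, 11800, 15700, 14200 and 14600 with the shRNA. In log2 units the change was 0.11 (SE 0.08, adjusted p = 0.563), with pairs 3 to 5 higher and pairs 1 and 2 at -0.02 and -0.04. In the probe sets used, the Ncl and Npm1 differences were thus of opposite sign, and both intervals included 0. The other Npm1 probe set, nearly as bright, was at -0.02. Those of Ncl, from the brightest to the dimmest, were at -0.18, -0.02, -0.25 and 0.35.

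The core proteins of the snoRNPs lay close to their control levels, apart from Rrp9, which varied among the controls. Fbl, fibrillarin, the methyltransferase of box C/D snoRNPs, read 2752, 2778, 2749, 2831 and 2617 in the controls and 2990, 2841, 2932, 2816 and 2979 with the shRNA. On the log2 scale the difference was 0.08 (SE 0.08, adjusted p = 0.643). Nop56 and Nop58, which hold fibrillarin in these particles, had log2 changes of -0.08 (SE 0.08, adjusted p = 0.675) and 0.01 (SE 0.10, adjusted p = 0.969). Nop56 intensity was 1816 ± 160 with the vector and 1720 ± 155 with the shRNA, and Nop58 intensity was 452 ± 47.4 and 460 ± 81.3 (SD, n = 5). Dkc1, dyskerin, the pseudouridine synthase of box H/ACA snoRNPs and a telomerase component, was at 2169 ± 257 and 2040 ± 179, a log2 change of -0.09 (SE 0.08, adjusted p = 0.645). Rrp9, a protein of the U3 snoRNP, was dim and uneven, at 25.27, 23.43, 28.27, 25.95 and 13.41 in the controls and 23.54, 24.77, 18.38, 17.82 and 15.08 with the shRNA. Its log2 change was -0.20 (SE 0.13, adjusted p = 0.493), and its control SD of 0.43 log2 units was the highest of the members.

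In the small-subunit processome, the nucleolar machine that makes the first cuts in pre-ribosomal RNA, 3 of 4 genes were close to 0. Heatr1 had an intensity of 241 ± 31.4 with the vector and 241 ± 19.1 with the shRNA, Utp20 276 ± 20.2 and 296 ± 26.6, and Nop14 187 ± 18.6 and 196 ± 15.0 (SD, n = 5). Their log2 changes were 0.01, 0.10 and 0.07, with adjusted p of 0.983, 0.648 and 0.739. Rrp12, which helps to export pre-ribosomal subunits from the nucleus, had the largest downward difference of the 35. It read 184.5, 186.7, 115.7, 115.8 and 124.4 in the controls and 157.8, 90.05, 124.5, 89.76 and 91.56 with the shRNA. Controls 1 and 2 were well above controls 3 to 5, pair 2 differed most, at 186.7 and 90.05, and pair 3 was slightly higher. In log2 units the change was -0.40 (SE 0.15, 95% interval -0.74 to -0.06, adjusted p = 0.203).

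Among assembly factors of the large subunit, 8 of 10 had a change below 0, against 8918 of all 18193 genes. All 10 lay between -0.20 and 0.13. Pes1, Bop1 and Wdr12 form the PeBoW complex, which is needed to process large-subunit RNA, and their differences were not alike. Wdr12 read 575.8, 611.9, 502.3, 485.3 and 484.8 in the controls and 528.4, 526.4, 422.4, 408.6 and 439.2 with the shRNA. Pairs 1 and 2 were the highest in both groups, and all 5 pairs were lower by 0.12 to 0.25 log2 units. On the log2 scale the difference was -0.20 (SE 0.08, adjusted p = 0.210), and it passed without the dim genes (adjusted p = 0.0498) and with a pseudocount of 16 (0.0231). The dimmer Wdr12 probe sets were at -0.05 and 0.07. For the mean of its probe sets limma gave -0.06 (adjusted p = 0.756). Bop1 was at 555 ± 35.4 with the vector and 609 ± 69 with the shRNA, a log2 change of 0.13 (SE 0.08, adjusted p = 0.474), higher in 4 of 5 pairs. Pes1 was at 483 ± 16.9 and 480 ± 62.6 (SD, n = 5), with pairs 1 and 2 higher by 0.13 and 0.14 and pairs 3 to 5 lower by 0.12 to 0.14 (log2 change -0.02, adjusted p = 0.944).

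Nop16, a nucleolar protein of large-subunit assembly, read 751.1, 740.8, 770.5, 775.7 and 736.6 in the controls and 732.9, 697.6, 705.6, 599.7 and 686.7 with the shRNA. The groups did not overlap, but the nearest arrays were only 736.6 and 732.9, with a log2 change of -0.14 (SE 0.08, adjusted p = 0.426). Rrs1, a nucleolar factor of early large-subunit assembly, was lower in all 5 pairs by 0.03 to 0.18 log2 units, at 1274 ± 66.1 and 1187 ± 108 (log2 change -0.11, SE 0.08, adjusted p = 0.543). Ppan, a nucleolar assembly factor, had a log2 change of -0.15 (SE 0.11, adjusted p = 0.551), with pair 3 at -0.55 and pair 4 at -0.33. Ddx21, an RNA helicase that acts in ribosomal RNA synthesis and processing, had -0.13 (SE 0.10, adjusted p = 0.588), most of it from pair 2 at -0.49. Gnl3, the GTPase nucleostemin of stem and cancer cells, had -0.07 (SE 0.08, adjusted p = 0.702). Nop2, a ribosomal RNA methyltransferase and proliferation antigen, and Noc2l, a nucleolar protein of large-subunit maturation, had 0.01 (SE 0.08, adjusted p = 0.982) and -0.01 (SE 0.09, adjusted p = 0.959).

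The pairs were not alike in where the members lay. The median log2 difference over the 35 genes was -0.04 in pair 1, -0.05 in pair 2, -0.09 in pair 3 and -0.14 in pair 4, and it was 0.03 in pair 5. In pair 4, 26 of the 35 were lower with the shRNA, and in pair 5, 22 of the 35 were higher. The median over all genes was -0.02, -0.02, -0.02, -0.00187 and 0.02 in the same order. The 3 prime to 5 prime ratio was higher in the shRNA array of each pair. In the vector and shRNA arrays it was 0.26 and 0.37 in pair 1, 0.28 and 0.33 in pair 2, and 0.28 and 0.37 in pair 3. It was farthest apart in pair 4, at 0.20 and 0.39, and closest in pair 5, at 0.37 and 0.39. Its part in these differences was not tested. With that ratio in the fit, the median change of the members was 0.03. That fit called only 2 of 18193 genes, so its count of 0 members says nothing about them.

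**Figure D3:**
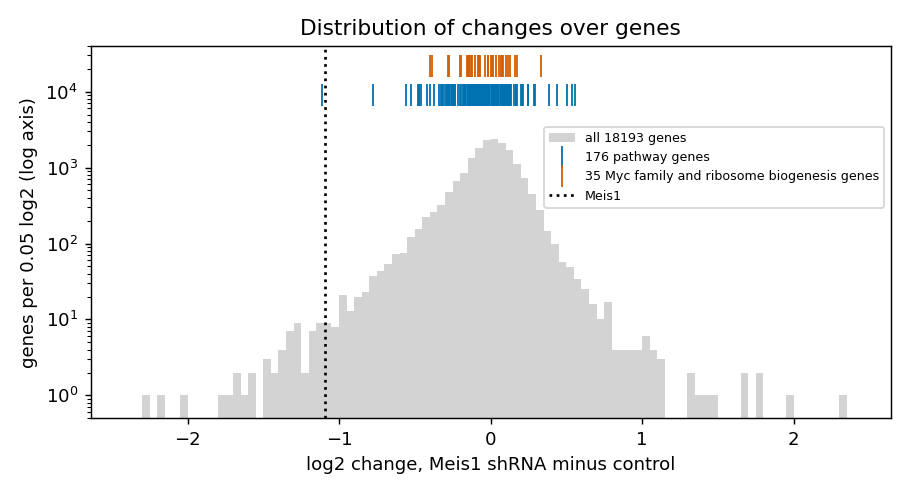
The number of genes per 0.05 log2 units of change (shRNA minus control, log axis) in grey, with each of the 35 genes and each of the 176 further pathway genes as a tick. The 35 genes lie between -0.40 and 0.33, and the dotted line marks Meis1 at -1.09.

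A wider set of 176 measured genes, of 181 listed, covered the rest of the pathway. Of these, 5 fell and 2 rose, which is 3.98%, against 4.06% of all genes, and the median log2 change was -0.06. At an unadjusted p under 0.05 there were 43, or 24.4%, against 18% of all genes. Shares of all genes given for these lists include dim genes, while 168 of the 176 had a mean log2 level above 5. Of all 6721 genes above that level, 8.75% passed with p adjusted over all genes. With limma refitted to those genes alone, 24 of the 168 (14.3%) passed, against 19.4% of the 6721. The share at an unadjusted p was not taken for bright genes alone. With dim genes kept, some settings gave the lists the larger share, as given further below. The lists for ribosome biogenesis held 133 measured genes with 3 lower and 1 higher (3.01%, against 4.06% of all genes). A change below 0 was seen in 85 of the 133, against 8918 of all 18193 genes.

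Shq1, the chaperone that guards dyskerin before it enters H/ACA particles, fell furthest. It read 56.38, 58.15, 50.07, 56.8 and 39.01 in the controls and 25.18, 21.67, 23.42, 21.99 and 27.32 with the shRNA (Entrez gene 72171, chromosome 6). The groups were well apart, with pair 5 the closest. The log2 change was -1.11 (SE 0.13, adjusted p = 0.00374), 2.16-fold lower, and was the only call among 11 genes for snoRNP proteins and assembly factors. Dkc1 itself, as given above, was at -0.09. The Shq1 probe set had a mean log2 level of 5.13, just above the bound of 5 used here. With a pseudocount of 16 the Shq1 change by limma was -0.76 (adjusted p = 0.0123). Leaving out any 1 pair kept Shq1 past the threshold. When the RNA integrity ratio entered the fit, its change was -0.79 (adjusted p = 0.543).

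Lsg1, a GTPase of the last steps of large-subunit maturation in the cytoplasm, read 210.6, 185.6, 159.6, 192.9 and 166 in the controls and 89.8, 131.5, 105.4, 85.73 and 127.3 with the shRNA. The groups did not overlap. In log2 units the change was -0.78 (SE 0.14, adjusted p = 0.0223 by limma). Lsg1 was the only call among 46 further genes of large-subunit assembly (2.17%, against 4.06% of all genes). Lsg1 missed the threshold when pair 1, 2, 3 or 4 was left out (adjusted p of 0.0733, 0.0566, 0.0616 and 0.0960), and with the integrity ratio in the fit its change was -0.32. Those fits without a pair also called fewer of all genes, at 320, 286, 346 and 243 against 739. The same fits are used for the genes below.

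Of 13 further genes of the RNA polymerase I machinery, 1 fell and 1 rose (15.4%, against 4.06% of all genes). Taf1b, a subunit of the selectivity factor that places the polymerase on the ribosomal RNA promoter, read 234.5, 245.6, 203.1, 189.5 and 242 in the controls and 181.6, 178, 180.5, 122 and 190.6 with the shRNA. All 5 pairs were lower and the groups overlapped at 1 control. On the log2 scale the difference was -0.40 (SE 0.09, adjusted p = 0.0489). Baz2a, the subunit of a remodelling complex that silences ribosomal RNA genes, read 119.3, 141.2, 126.6, 125.5 and 169.4 in the controls and 178.1, 196, 184.9, 237.6 and 191.7 with the shRNA. Its log2 change was 0.54 (SE 0.11, adjusted p = 0.0335), without overlap of the groups. Taf1b missed the threshold whichever pair was left out (adjusted p of 0.138, 0.134, 0.0733, 0.176 and 0.0675 without pairs 1 to 5), after quantile normalization (0.0857) or without the block (0.157). Baz2a did not pass without pair 1, 2, 3 or 4 (0.111, 0.0940, 0.103 and 0.113), and with the integrity ratio in the fit its change was 0.18 and that of Taf1b -0.26.

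None of 49 further genes of the small-subunit processome and maturation passed, against 4.06% of all genes. At an unadjusted p under 0.05 there were 9 (18.4%, against 18% of all genes). The nearest was Aatf, a nucleolar protein of early small-subunit processing that also takes part in the p53 response. It was at 407 ± 58.7 with the vector and 550 ± 59.1 with the shRNA (SD, n = 5), a log2 change of 0.44 (SE 0.10, adjusted p = 0.0507), higher in all 5 pairs. None of 14 genes of the exosome and other pre-ribosomal RNA nucleases passed, with 4 (28.6%, against 18% of all genes) at an unadjusted p under 0.05. A change below 0 was seen in 11 of the 14, against 8918 of all 18193 genes. The nearest was C1d, a nuclear cofactor of the exosome, at 1431 ± 133 and 1032 ± 157 (SD, n = 5), a log2 change of -0.48 (SE 0.12, adjusted p = 0.0607).

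Among 12 cofactors and relatives of the Myc network, Trrap was the only call (8.33%, against 4.06% of all genes). Trrap, a scaffold of histone acetyltransferase complexes that Myc recruits, read 114.6, 147.7, 117.6, 183.8 and 160.8 in the controls and 154.1, 217.2, 232.2, 254.3 and 206.4 with the shRNA. All 5 pairs were higher, pair 3 most (0.98), and the groups overlapped. Its rise in log2 units was 0.56 (SE 0.11, adjusted p = 0.0249). Without pair 1, 2, 3 or 4 its adjusted p was 0.0702, 0.0841, 0.0616 and 0.0897, and without the block it was 0.0958. With the integrity ratio in the fit it was 0.705, at a change of 0.55.

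Of 31 measured Myc targets outside the nucleolus, 2 fell and none rose (6.45%, against 4.06% of all genes). A change below 0 was seen in 23 of them, against 8918 of all 18193 genes. Eif4a1, the RNA helicase of the cap-binding complex in translation, read 5479, 5390, 5831, 6611 and 4979 in the controls and 3823, 3500, 4208, 3543 and 4137 with the shRNA. The groups did not overlap, with a log2 change of -0.56 (SE 0.10, adjusted p = 0.0223), 1.47-fold lower. Its other probe sets were at -0.55 and -0.33. Tfrc, the transferrin receptor that brings iron into dividing cells, read 3254, 3181, 3069, 3496 and 3272 in the controls and 2472, 2481, 2520, 2624 and 2785 with the shRNA. It had a log2 change of -0.34 (SE 0.08, adjusted p = 0.0494), also without overlap, and its dimmer probe sets were lower by more, at -0.65 and -0.995. Eif4a1 missed the threshold when pair 1, 2, 3 or 4 was left out (adjusted p of 0.0768, 0.0837, 0.0684 and 0.0849) and was at -0.27 with the integrity ratio in the fit. Tfrc missed the threshold whichever pair was left out (0.165, 0.124, 0.122, 0.176 and 0.0564 without pairs 1 to 5) or after quantile normalization (0.0541), and was at -0.25 with the integrity ratio in the fit.

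**Figure D4:**
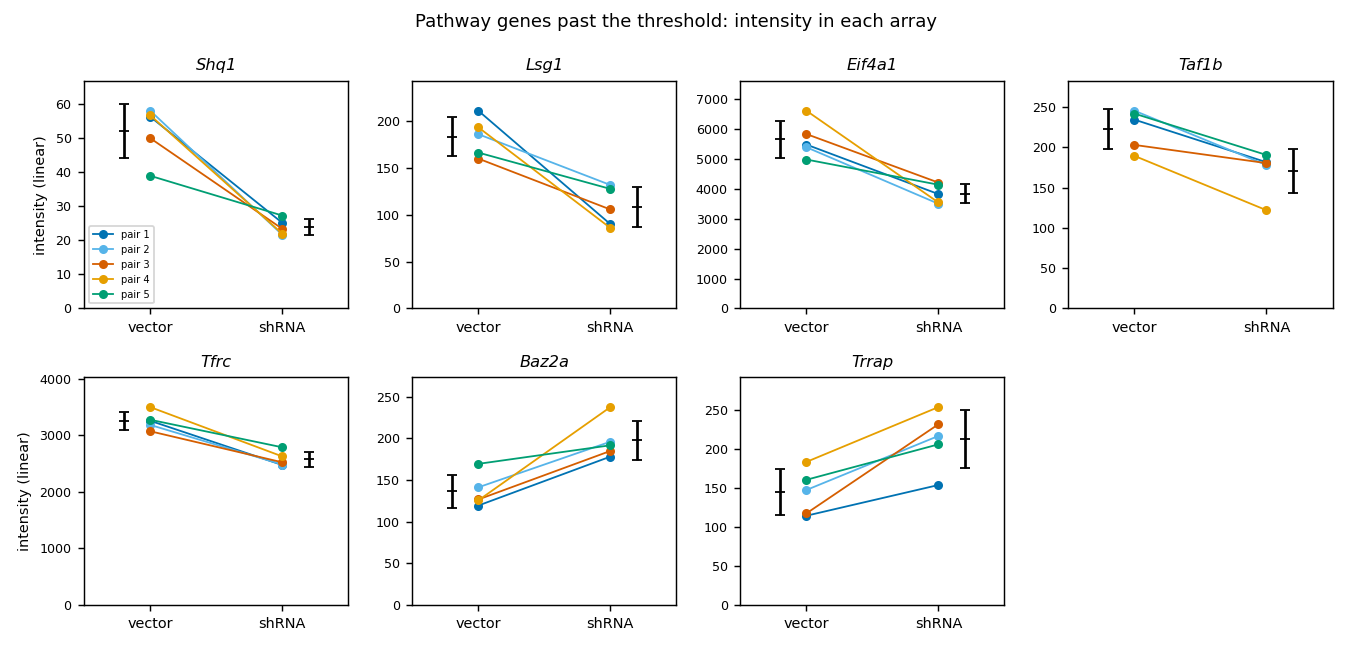
Deposited intensity on a linear axis from 0 for the 7 further pathway genes past the threshold, with the vector at left and the Meis1 shRNA at right. Coloured lines join the arrays of a pair, and black bars give the mean and SD of each group (n = 5). Shq1 reads 39.01 or more in each control and 27.32 or less in each shRNA array, and Baz2a and Trrap are higher in all 5 pairs.

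The choice of probe set did not bring a member past the threshold. The 35 genes had 76 probe sets, and 24 of them had more than 1. Tested with all 45037 probe sets by limma, 0 of the 76 passed, against 2.48% of all, and the lowest adjusted p was 0.172, for the dimmest of 3 Tcof1 probe sets at -0.33 on the log2 scale. The remaining Tcof1 probe set, nearly as bright as the one used above, was at -0.08 (adjusted p = 0.850). With the mean of all probe sets of a gene, limma called 0 of the 35 members and 4.70% of all genes.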

How the data were processed

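RNA from 10 samples was hybridised to Affymetrix arrays after column extraction and biotin labelling, per the labels. The deposited values are array intensities, 1 per probe set and array, and the submitters' processing notes name RMA. RMA gives log2 values, while the deposited intensity values run on a linear scale, as seen from their range, so log2 of each was taken here. Scanner files were not used here.

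The table held 45101 probe sets. After 64 control probe sets were left out, 45037 remained, of which 34945 had 1 gene symbol and 932 several. Of these, 34741 matched a RefSeq gene, and no symbol changed. The brightest probe set of each of 18193 genes was tested with limma 3.58.1 (R 4.3.3), with lmFit and eBayes, the pair as a block and Benjamini-Hochberg adjustment over all genes, at 0.05. SE and 95% intervals come from this fit. On simulated data with independent noise, the fit was checked for its calls and for the size and sign of changes. Coverage of the intervals was not checked. The number of arrays limits the precision.

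Pairs come from the sample numbers, which the labels' treatment protocol pairs. Deviations from group means correlated within each pair (0.600, 0.462, 0.339, 0.310 and 0.557 over 11215 probe sets).

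The members and lists were chosen with earlier results of these data known. Genes named by rule were members past the threshold, all Myc network members, the members of largest and smallest change, and for each pathway list up to 3 called genes or else the gene of lowest adjusted p. Values of the other members were added after they were seen. Alternatives were quantile normalization, median centring, a pseudocount of 16, a mean log2 level above 5, the mean of a gene's probe sets, array weights, trend and robust moderation, no block, the RNA integrity ratio (3 prime over 5 prime signal) in the fit, and each pair left out.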

Additional observations from a re-analysis of the deposited data

Results flagged for a closer look

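In 86 groups of 5 arrays, from 43 genes, 5 had an array whose gap to its nearest neighbour was large for the range of the group, and chance gives about 1 in 20. For Max, control 5 was the lowest of its group at 21.43, where the others read 25.05 to 26.66. For Mxi1, control 5 was the highest at 1091, where the others read 781.7 to 833. For Rrp9, control 5 was the lowest at 13.41, where the others read 23.43 to 28.27. For Ddx21, shRNA array 2 was the lowest at 1202, where the others read 1547 to 1691. For Taf1b, shRNA array 4 was the lowest at 122, where the others read 178 to 190.6. Control 5 was the array that stood apart for Max, Mxi1 and Rrp9.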

How the results depend on the processing

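The median log2 change of the members ran from -0.06 to 0.03 over 14 alternatives, within the SD of the pair medians (0.07) of the reported value. The number of members past the threshold was 0 as reported and with any 1 pair left out. It was 2 of 30 (6.67%) with a mean log2 level above 5, against 19.4% of all genes above that level. With a pseudocount of 16 it was 3 (8.57%), against 5.99% of all genes. Trend and robust moderation gave 2 (5.71%), against 8.23% of all genes. Over all alternatives 5 members passed at least once, and 41 of 485 member values changed sign, none of them past the threshold. The 7 calls among the pathway genes became 0 with the RNA integrity ratio (3 prime over 5 prime signal) in the fit, and 1 to 8 with a pair left out. They became 24 of 168 (14.3%) with a mean log2 level above 5, against 19.4% of all genes above that level. With a pseudocount of 16 there were 19 (10.8%, against 5.99% of all genes). Trend and robust moderation gave 27 (15.3%, against 8.23%). The mean of probe sets gave 12 (6.82%, against 4.70%) and median centring 11 (6.25%, against 4.52%). The 739 calls over all genes became 2 with the covariate, 1305 of 6721 (19.4%) above a log2 level of 5, 1497 with trend and robust moderation, and 243 to 929 with a pair left out. After quantile normalization 382 of 691 calls were lower, and after median centring 664 of 823. Without the pairing as a block, 500 genes, 6 pathway genes and 0 members passed. The causes were not tested. The covariate is partly aligned with the groups, and it was higher in the shRNA array of each pair. Above a level of 5, limma was refitted and fewer genes were adjusted over, and the parts of these 2 changes were not separated. Of the dim members, Mycl (mean log2 level 2.29) overlapped the unspiked Trpn probe sets (1.71 to 2.30), and Mycn (2.86) lay near them. Max, Mxd1 and Rrp9, at 4.56, 4.71 and 4.39, lay above those probe sets but below the level of 5.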
